A study of Drosophila melanogaster with 4 samples.

Results

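The regions described here are the 4 megabases at the telomere ends of the Drosophila melanogaster chromosome arms 2L, 3L, 3R and X on FlyBase release 5. They were chosen by position alone, as positions 1 to 1000000 of 2L, 3L and X and positions 26905054 to 27905053 of 3R, whose telomere lies at the high coordinates. Each megabase was tiled in 200 windows of 5 kb, which gives 800 windows of the 33736 that fit on the 14 sequences named in the file headers. All values come from ChIP-seq (sequencing of immunoprecipitated chromatin) for H3K9me2, the dimethylated form of a lysine in the tail of histone H3, in S2-DRSC. S2-DRSC is a cell line grown in culture; its labels give late embryos as its origin and male as its sex. The cells carried no labelled treatment or allele, and were fixed with formaldehyde before sonication, per the labels' protocols. The group of 2 ChIP samples is called replicate 1 and replicate 2, and the authors called enriched clusters for each of them, with 1 labelled input per list. Whether they were grown as separate cultures is not labelled, and the SD over them may be purely technical.

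Drosophila telomeres are not built by telomerase. Their ends are kept by arrays of the retrotransposons HeT-A, TART and TAHRE, which are followed inwards by satellite-like telomere-associated sequence and then by gene-bearing DNA. H3K9me2 is a heterochromatin mark that is bound by the protein HP1a, which also belongs to the telomere cap. Genes inserted next to a fly telomere can be silenced, an effect called telomere position effect. How much of the repeat arrays the release 5 ends contain was not analysed here.

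H3K9me2 clusters covered a modest part of the 4 megabases, and the arms were far from equal. The covered share, which is the percentage of bases that lie in clusters, averaged 12.7 ± 3.44% (SD, n = 2), from 10.3% in replicate 1 and 15.2% in replicate 2. On 2L it was 22.9% and 25.7%, on 3L 8.47% and 19.3%, on X 5.86% and 10.7%, and on 3R 4.02% and 4.93%, for replicates 1 and 2. The order of the arms was 2L, 3L, X and 3R in both replicates, but it changed with the processing. With only clusters at or above the median score of their list, the means were 12.9% on 2L, 3.70% on X, 2.13% on 3R and 1.07% on 3L. Over 2 Mb in place of 1 Mb, 3L at 16.2% stood above 2L at 13.99%. The 2L megabase was covered 5.69 and 5.23 times as much as that of 3R. It was covered 2.70 times as much as 3L in replicate 1 but 1.33 times in replicate 2, so the distance between these arms depended on the sample. The means of 3L and X, 13.9 ± 7.65% and 8.30 ± 3.45%, lay within their spread of each other. The arms were measured in the same samples, however, and 3L was covered more than X in both replicates.

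Most windows held no cluster. Of the 800 windows, 575 (71.9%) had no covered base in either replicate, close to the 69.3% of the 4 whole arms. Windows covered at 50% or more in both numbered 71 (8.88%). Over all 19575 windows of the 4 whole arms, which include the densely marked centromere ends, 13.1% met the same rule. The count by arm was 42 windows on 2L, 14 on 3L, 8 on X and 7 on 3R. A further 43 windows reached 50% in replicate 2 only (5.38%, against 4.26% over the whole arms) and 2 in replicate 1 only (0.25%, against 0.424%). Windows covered without a break in both replicates numbered 24 (3.00%, against 6.07% over the whole arms), of which 21 were on 2L, 2 on 3R, 1 on 3L and none on X.

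**Figure D1:**
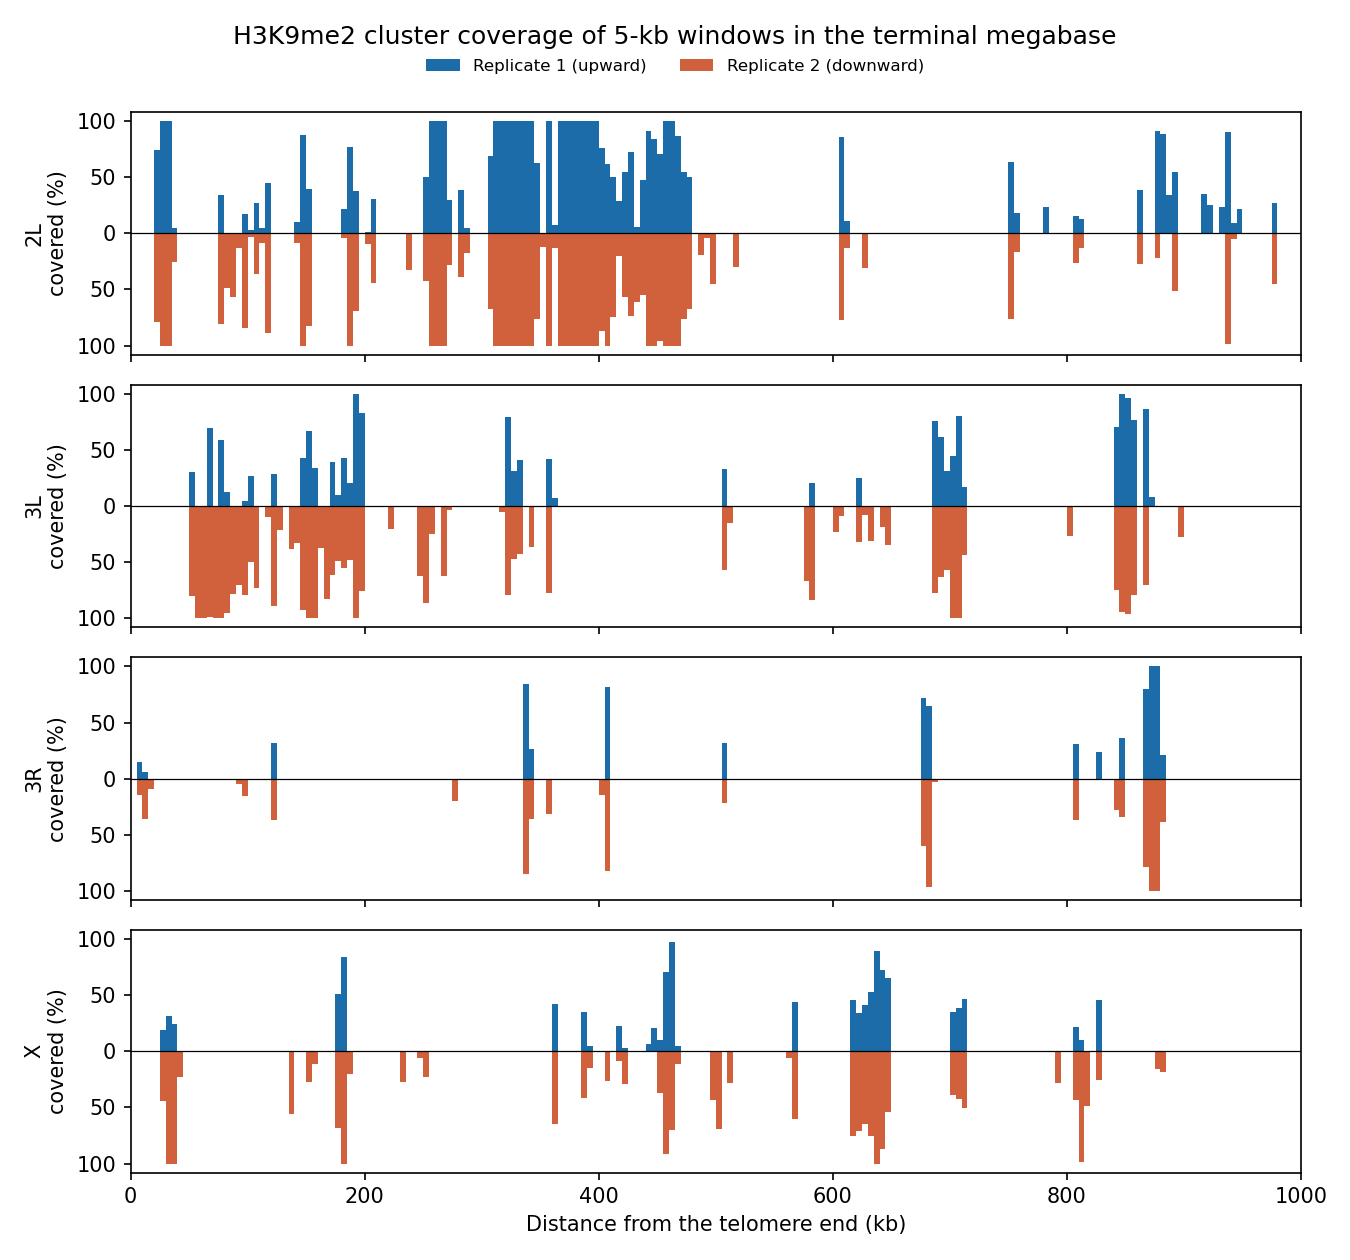
Covered share of each 5-kb window (y axis, percent) against distance from the telomere end (x axis, kb) on 2L, 3L, 3R and X, with replicate 1 drawn upwards and replicate 2 downwards. A dense stretch on 2L between 305 and 480 kb is present in both replicates, while the outer 200 kb of 3L is filled mainly in replicate 2.

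On 2L the mark was concentrated in 1 block. Replicate 1 covered 81.9% of the 100 kb bin from 300 to 400 kb and 51.7% of the next bin, and replicate 2 covered 83.5% and 66.9%. These 200 kb, singled out after their values were seen, held 58.4% of the covered bases of the megabase in each replicate. Beyond them coverage ended abruptly: the bin from 500 to 600 kb was at 0% and 1.51%. Windows at 50% or more in both replicates ran without a gap from 305 to 350 kb, from 365 to 415 kb and from 440 to 480 kb.

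The combined list was made by the authors for the whole series. Its longest cluster in the 2L megabase lay at 306577 to 348425 and was 41.8 kb long. A single cluster filled 99.3% of it in replicate 1, and likewise 99.9% in replicate 2. The second, of 39.0 kb at 364929 to 403889, was covered at 99.2% and 100%. The third, of 19.0 kb at 252515 to 271555, was covered at 99.6% and 97.4%. These 3 clusters thus had nearly the same borders in both samples. The longest one also had the highest score of the combined list in the 2L megabase. That score, the authors' own deposited value on an unstated scale, exceeded 74.4% of the clusters in the combined list. The matching clusters of replicates 1 and 2 exceeded 70.0% and 69.6% of the clusters in their own lists. Most clusters of the block scored lower. The median score of the 17 from 300 to 500 kb was 0.611 in replicate 1 and 0.573 in replicate 2. The medians over all clusters of the respective lists were 1.37 and 1.42. Clusters of the block that began beyond 403889 were all under the median of their list in both replicates.

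On 2L the outermost cluster of the combined list lay at 21170 to 35260, and the 21.3 kb before it in replicate 1 and 21.0 kb in replicate 2 held none. Both replicates covered this cluster almost fully, at 99.0% and 99.5%. The longest run of windows of the 2L megabase free of clusters in every list was 120 kb long, from 630001 to 750000. Replicate 1 covered more than replicate 2 in 3 of the 10 bins of 2L and in 1 bin of 3R, and in none on 3L and X. On 2L the bin from 800 to 900 kb stood at 16.8% (replicate 1) and 7.07% (replicate 2), and that from 900 to 1000 kb at 11.6% and 7.44%. The longest stretch of the 2L megabase marked in replicate 1 alone, 3.22 kb at 879213 to 882432, lay there. The longest in replicate 2 alone, 4.28 kb at 78158 to 82440, lay near the end of the arm.

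On 3L the replicates stood apart. Replicate 1 covered 8.78% of the outer 100 kb and 24.6% of the next 100 kb, whereas replicate 2 covered 45.1% and 55.8%. The first 200 kb of 3L was singled out after its values were seen. It held 12 clusters in replicate 1 (median length 1652 bp) and 21 in replicate 2 (3511 bp). Replicate 2 marked 100.9 kb of these 200 kb and replicate 1 marked 33.4 kb, of which 94.6% lay inside replicate 2 clusters, and in the interior of 3L this share was 94.6% too. In the other direction, 31.3% of the replicate 2 bases lay in replicate 1 clusters here and 75.9% did in the interior of 3L, a difference that was not tested. In the first 200 kb of the other arms this share was 37.9% on X, 29.8% on 3R and 60.4% on 2L. Their interiors stood at 70.8%, 66.6% and 70.6%. The 3R value rests on few bases, as replicate 2 covered only 2.92% there. A low share near the end was thus not particular to 3L.

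The first 50 kb of 3L contained no cluster in any list. The first one began 53.5 kb from the end in replicate 1 and 51.0 kb in replicate 2. From there replicate 2 ran in 2 long clusters, at 51007 to 64978 and at 65041 to 80368, which were 13.97 and 15.3 kb long. Replicate 1 had 4 short clusters over the same stretch, of 1.53, 3.46, 1.97 and 1.59 kb. Among the 4 megabases, the longest stretch marked in replicate 2 alone, 9.97 kb at 55005 to 64978, lay here. In 6 of the 40 windows of the outer 200 kb (15.0%) replicate 2 reached 50% while replicate 1 had no covered base. The share was 1.625% over the 4 megabases and 1.07% over the whole arms. As the stretch was singled out after its values were seen, this comparison is not an independent one. The combined list lay between the 2 replicates, at 17.96% of the outer 100 kb. Its outermost cluster, of 4.02 kb at 51772 to 55786, had 38.2% of its length in replicate 1 clusters and all of it in replicate 2.

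The 3L clusters had low scores within their lists, near the end and farther in. The median score over the first 200 kb was 0.576 in replicate 1 and 0.822 in replicate 2, against medians of 1.37 and 1.42 over all clusters of the respective lists. Of these clusters 0 of 12 and 1 of 21 reached the median of their list, as did 0 of 14 and 3 of 24 in the rest of the megabase. In the interiors of the 4 arms 19.1% and 24.1% reached it. On 2L the medians over the first 200 kb, 0.663 and 0.769, were also under those of the lists. So were the medians of the 3L interior, 0.835 and 0.932, and of the 4 interiors together, 0.945 and 1.02. Low scores within the lists were thus not particular to the end of 3L. Farther in on the 3L megabase, the replicates were closer. The bin from 800 to 900 kb was covered at 21.9% and 23.5%. It held the second longest cluster of the combined list in the 3L megabase, 10.2 kb at 841275 to 851451, covered at 97.4% and 96.1%. It also held the highest-scoring one, 7.53 kb at 851459 to 858984, covered at 95.9% and 99.4%. The longest, 10.3 kb at 188661 to 198995, was covered at 96.8% and 96.6%, and the third, 8.42 kb at 146896 to 155312, at 64.9% and 99.2%. In the 3L megabase the longest run of windows free of clusters was 140 kb long, from 365001 to 505000. Its longest stretch in replicate 1 alone was 1.41 kb, at 868985 to 870392.

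3R was the least marked of the 4, with 12 clusters in replicate 1 and 16 in replicate 2. Of its 200 windows 176 had no covered base in either replicate. The highest bin was that from 800 to 900 kb, at 19.6% and 20.8%, and it held 48.7% and 42.3% of the covered bases of the megabase. In this bin lay the longest and highest-scoring cluster of the combined list in the 3R megabase, 15.5 kb at 27023630 to 27039102. It was covered at 97.0% and 99.4%. The second longest, 5.84 kb at 27221726 to 27227567, was covered at 90.7% and 99.7%, and the third, 5.59 kb at 27563696 to 27569283, at 99.4% and 100%. The few clusters of some length in the 3R megabase were thus found in both samples at the same place. The longest run of windows free of clusters here, 165 kb from 27230054 to 27395053, was the longest of the 4 megabases. In replicate 1 alone the longest stretch of the 3R megabase was 1.43 kb at 27228072 to 27229504. In replicate 2 alone it was 1.68 kb at 27219889 to 27221568.

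Nothing long was marked at the very end of 3R. Replicate 1 had a single cluster in the outer 100 kb, of 1.01 kb at 27894777 to 27895782. Replicate 2 had 3, of 1.51 kb at 27894274 to 27895785, 1.49 kb at 27889594 to 27891087 and 1.00 kb at 27809278 to 27810278. The replicate 1 cluster lay wholly inside the outermost one of replicate 2, 9.27 kb from the end in both, which is closer to a telomere than any cluster on the other 3 arms. The combined list had none of these, and its outermost 3R cluster lay at 27781900 to 27783717, covered at 85.4% and 55.1%.

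In the X megabase few clusters were long. The longest was 5.58 kb in replicate 1 and 13.4 kb in replicate 2, and 153 of the 200 windows had no covered base in either. The median length was not low, at 2194 bp in replicate 1 and 2518 bp in replicate 2. At the other arm ends it ran from 1588 to 2037 bp in replicate 1 and from 1592 to 3588 bp in replicate 2. The 13.4 kb cluster of replicate 2 lay at 27775 to 41160. Replicate 1 had 2 clusters inside it, at 29072 to 31554 and at 37086 to 38310, and the combined list broke the same stretch into 5. The outermost of those, 3.23 kb at 28634 to 31860, had 76.9% of its length in replicate 1 clusters and all of it in replicate 2. The end of X before this place was free of clusters for 29.1 kb in replicate 1 and 27.8 kb in replicate 2.

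The densest X bin was that from 600 to 700 kb, at 20.1% and 26.4%, where windows at 50% or more in both replicates ran from 630 to 650 kb. The longest cluster of the combined list in the X megabase, 7.02 kb at 177419 to 184434, was covered at 96.0% and 100%. The second, 6.57 kb at 808758 to 815325, stood at 24.4% (replicate 1) and 96.3% (replicate 2). The third, 5.65 kb at 498382 to 504031, was at 0% in replicate 1 and 90.2% in replicate 2. The highest-scoring one, 3.83 kb at 703136 to 706963, was covered at 96.2% and 100%. The second and the third were thus mainly replicate 2 clusters. From 885001 to the inner border, 115 kb held no cluster in any list. The longest stretch of the X megabase in replicate 1 alone was 1.43 kb at 621202 to 622633. In replicate 2 alone it was 6.91 kb at 810503 to 817412.

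X clusters had higher scores than those of the other 3 arm ends. In replicate 1 the median was 1.28 on X, against 0.647 on 2L, 0.631 on 3L and 0.675 on 3R. In replicate 2 it was 1.33 against 0.742, 0.792 and 0.676. The lowest score in the X megabase was 1.03 in replicate 1 and 0.890 in replicate 2. It lay above the medians of the other 3 arm ends in the same list. On the interior of X, meaning the arm without the megabase at either end, the medians were 1.07 and 1.18, also above the other interiors (0.801 to 0.835 in replicate 1 and 0.861 to 0.932 in replicate 2). Scores were not compared in size between lists, and these differences were not tested.

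**Figure D2:**
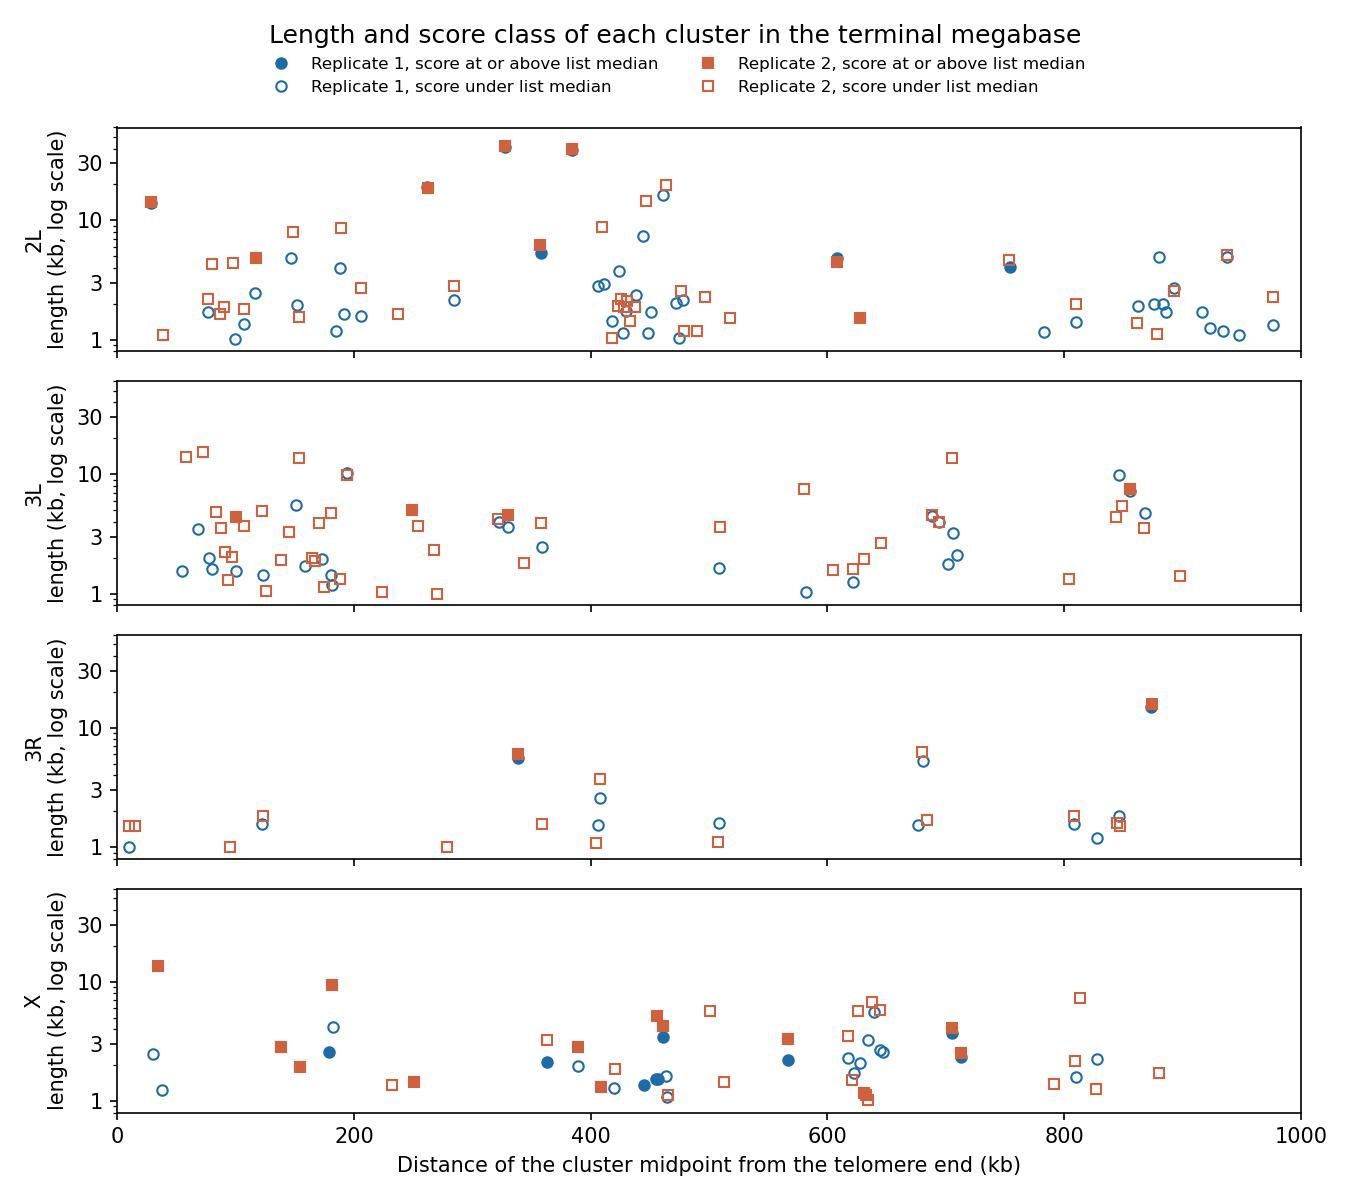
Length of each cluster (y axis, kb, log scale) against the distance of its midpoint from the telomere end (x axis, kb), for replicate 1 (circles) and replicate 2 (squares, drawn on top), filled where the score reached the median of its own list. Among clusters of the 4 terminal megabases, the only ones over 20 kb are the 2 on 2L, found in both replicates. Open symbols prevail on all 4 arms, with 15.6% of replicate 1 and 20.7% of replicate 2 clusters filled.

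No common gradient from the telomere inwards was present. Summed over the 4 arms, replicate 1 covered 7.50% of the outer 100 kb and 10.6% of the remaining 900 kb, and replicate 2 covered 23.0% and 14.3%. The outer part was thus lower in replicate 1 and higher in replicate 2, a mean difference of 2.78 ± 8.34 percentage points (exact sign-flip permutation test over the 2 replicates, two-sided p = 1). This exact test cannot go below p = 0.5 with 2 replicates, so no difference between regions could pass a threshold of 0.05 here. By arm, the outer 100 kb exceeded the rest in replicate 2 on 2L (29.5% against 25.3%), 3L (45.1% against 16.4%) and X (13.4% against 10.4%). In replicate 1 it did so only on 3L, by 0.338 percentage points. On 3R it was lower in both.

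Summed over the 4 arms, the outer and inner 500 kb differed in the same direction in both samples, but the arms differed among themselves. The first 500 kb was covered at 13.6% and 21.5%, and the second 500 kb at 7.00% and 8.82%, a mean difference of 9.67 ± 4.31 percentage points (exact sign-flip permutation test, two-sided p = 0.5, the smallest possible). On 2L alone the 2 parts were at 38.1% and 7.68% in replicate 1 and at 46.2% and 5.34% in replicate 2. On 3L they were nearly equal in replicate 1, at 8.68% and 8.27%, and at 25.7% and 12.9% in replicate 2. On 3R and X the order was the opposite in both replicates, with a difference of -2.64 ± 0.728 and -0.865 ± 0.421 percentage points. The last 100 kb of the megabase had no cluster on 3L, 3R and X in any of the 3 lists.

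Set beside the rest of their own arms, the 4 ends did not behave alike. Together they were covered at 10.3% and 15.2% and the interiors at 12.5% and 16.5%, a difference of -1.76 ± 0.600 percentage points (exact sign-flip permutation test, two-sided p = 0.5, the smallest possible). On 2L the end was covered more than the interior, at 22.9% against 11.97% in replicate 1 and 25.7% against 16.2% in replicate 2. On X it was covered less, at 5.86% against 20.3% and 10.7% against 26.6%. On 3R it was also covered less, at 4.02% against 6.62% and 4.93% against 9.37%. On 3L the sign turned with the sample, at 8.47% against 12.7% and 19.3% against 15.8%.

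The direction over all 4 ends depended on where the interior was taken. It was 1.60 percentage points above the interior when the 5 Mb nearest the centromere was left out, and 2.43 above the second megabase from the telomere. Without X it was 2.35 above the interior, and without 2L the difference was -5.74 percentage points. Ranked among the 1 Mb tiles of its arm, the end of 2L was the 3rd and the 4th most covered of 23 in replicates 1 and 2. The end of X was the 21st of 22 in both, that of 3R the 17th and 24th of 27, and that of 3L the 11th and 6th of 24. The second megabase of 2L was covered at 2.95% and 4.39%. At the other end of the arms, the megabase next to the centromere was covered at 59.1 ± 5.05% (SD, n = 2) over the 4 arms.

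**Figure D3:**
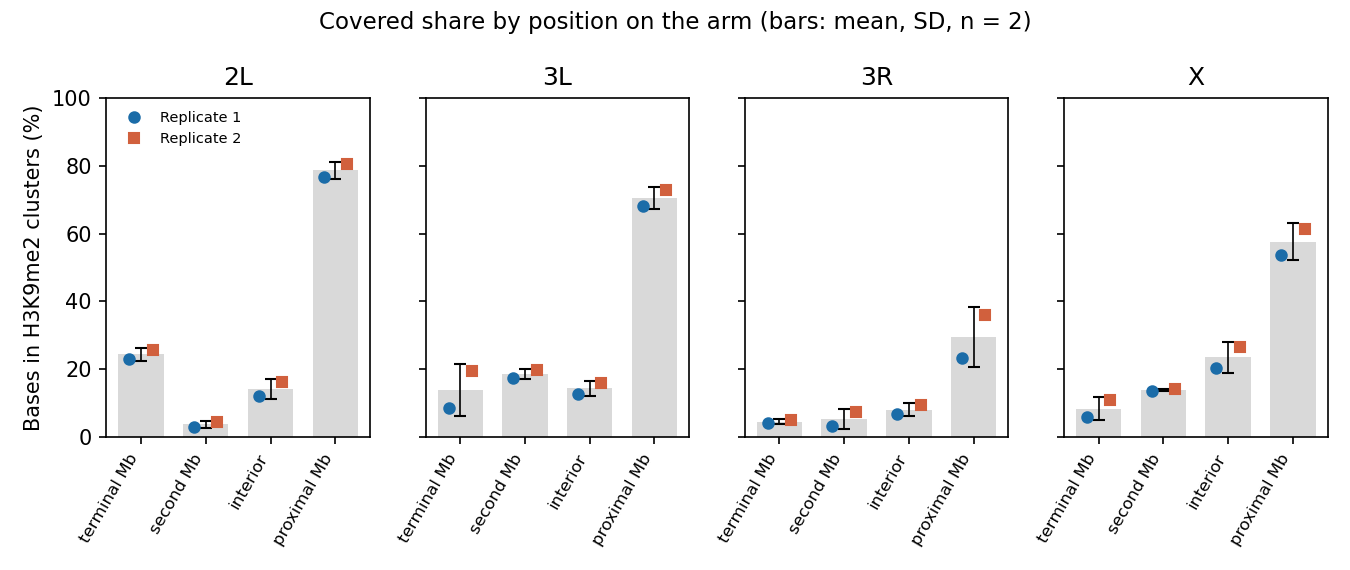
Covered share (y axis, percent) of the terminal megabase, the second megabase, the interior and the proximal megabase of each arm (x axis), with points for the 2 replicates and bars with error bars for their mean and SD (n = 2). The terminal megabase lies above the interior on 2L and below it on 3R and X in both replicates, and on 3L the replicates lie on either side.

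The part of the coverage that both replicates shared was smaller at the ends of 3L and X than in their interiors, larger on 2L and nearly equal on 3R. Taking the bases marked in at least 1 replicate, 57.1% were marked in both at the 4 ends and 68.3% in the interiors. By arm the shares were 73.1% on 2L, 63.4% on 3R, 43.0% on X and 40.9% on 3L, against 68.6%, 64.0%, 67.2% and 72.8% in the respective interiors. The gap was on the side of replicate 2. It had 236.3 kb of its own in the 4 megabases, of which 112.3 kb was on 3L, while replicate 1 had 41.7 kb. Of the replicate 1 bases 89.9% lay in replicate 2 clusters, and of the replicate 2 bases 61.1% lay in replicate 1 clusters. Without the first 200 kb of 3L, an alternative chosen after the data were seen, the shared part was 62.1%. In the second megabase from the telomere the shared parts were 49.4% on 2L, 38.9% on 3R, 58.3% on X and 81.5% on 3L. Beside that region the end of 3R stood higher, while 2L, X and 3L kept their direction. These shares describe 2 lists, and no test across samples bears on them.

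Clusters found in 1 replicate only were short. Of 135 replicate 2 clusters 50 met none of replicate 1, and their median length was 1596 bp against 4082 bp for the 85 that did. That is 37.0%, close to the 41.0% of the interiors, where the medians were 1618.5 and 4357 bp. Of 109 replicate 1 clusters 10 (9.17%) met none of replicate 2, with medians of 1317.5 and 2144 bp, against 7.29% in the interiors. Across the 200 windows of an arm the covered shares of the 2 replicates had a Spearman rank correlation of 0.881 on 2L, 0.793 on 3R, 0.764 on X and 0.720 on 3L. Most windows were at 0 in both lists, and windows that share a cluster are not independent. Read depth is not recorded in the lists, so its part in the difference between the replicates was not tested.

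**Figure D4:**
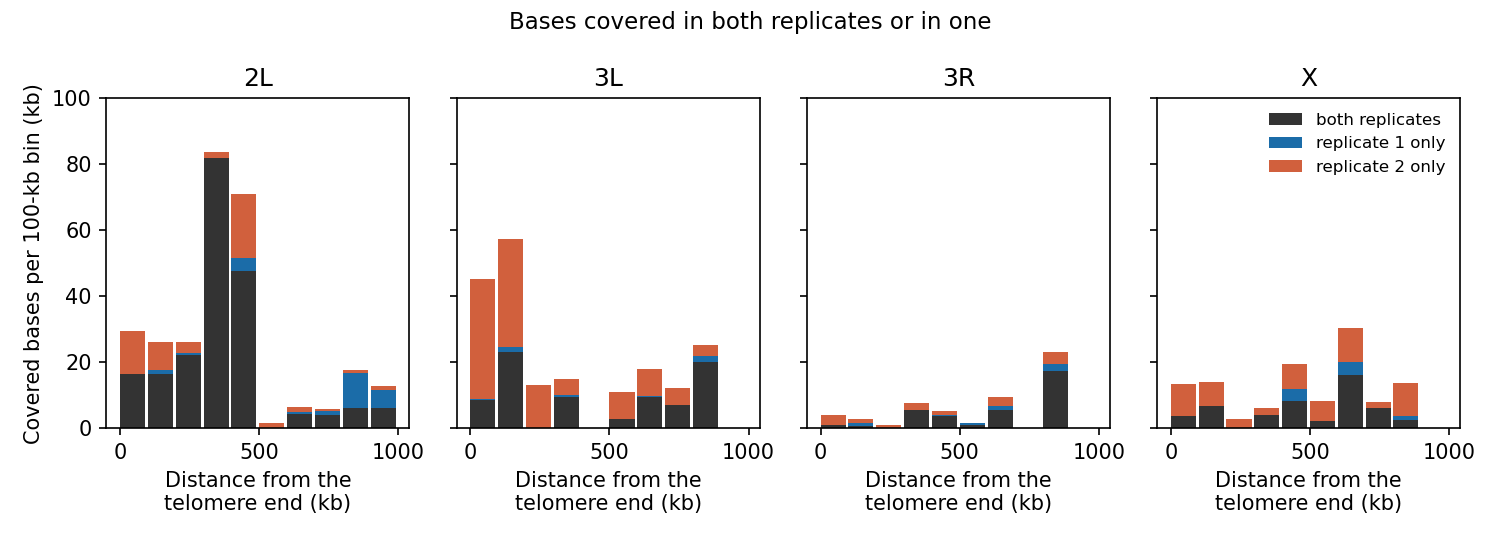
Covered bases per 100-kb bin (y axis, kb) against distance from the telomere end (x axis, kb), split into those covered in both replicates, in replicate 1 only and in replicate 2 only. Bases of replicate 2 alone make up most of the covered bases in the first 200 kb of 3L, with 69.3 kb against 31.6 kb shared, while the 2L block from 300 to 500 kb is 83.9% shared.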

How the data were processed

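Per the labels, 2 ChIP samples and 2 inputs were sequenced, and each input belongs to 1 ChIP list. No list of an input itself was used here. The authors deposited enriched clusters with positions and a score per cluster, on FlyBase release 5 per the file headers. Bowtie 0.12.7 was used, per the submitters' processing notes. Neither the cluster caller and its threshold nor the making of the combined list is given in the sources used. The score is the authors' deposited value, and its scale is not stated. Depth is unknown, so no counting interval is given.

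Covered shares were counted per base with Python 3.11.15 and NumPy 2.4.6 in windows of 5 kb and bins of 100 kb from the telomere end. Rank correlations used SciPy 1.17.1 and figures Matplotlib 3.10.9. A cluster belonged to the region that held its midpoint. The interior leaves out 1 Mb at either end of an arm. Coverage functions were tested on simulated clusters. The only test was an exact sign-flip permutation test over the 2 replicates. Alternatives were a score minimum, joined clusters, a length minimum, other borders and windows, and single lists.

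The regions and lists were chosen with earlier results of these data known. Named for each terminal megabase were the outermost, the 3 longest and the highest-scoring clusters of the combined list. The longest empty run and the longest stretch of each replicate alone were named too, and all were searched within the megabase only. The gene table at hand is on release 6, so no gene was placed and no sequence is shown.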

Additional observations from a re-analysis of the deposited data

Results flagged for a closer look

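The covered share of the terminal megabase minus that of the arm interior had opposite signs on different arms, in both replicates each time. It was 10.2 percentage points on 2L (mean of 2 replicates), -3.52 on 3R and -15.1 on X. The difference between arms was not tested.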

How the results depend on the processing

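Of 80 recomputed values 53 were counted as the same, 21 as moved and 6 changed sign. Covered shares were counted by their spread and differences by their direction. The window count and the shared part have no SD, so their labels measure no spread. A count of 61 with the length minimum, against 71, was counted as the same. A shared part of 57.8% with joined clusters, against 57.1%, was counted as moved. The 53 include 10 covered shares of 1 replicate alone, which lie within 1 SD of the mean of 2 by construction and say nothing on stability. Joining clusters within 1 kb changed no covered share beyond the spread. With clusters at or above the median score of their list, covered shares were 4.96% over the 4 ends, 12.9% on 2L, 1.07% on 3L, 2.13% on 3R and 3.70% on X, since that choice leaves fewer clusters. With clusters of at least 2 kb, 2L stood at 21.5% and 3R at 3.02%. Over 500 kb the share was 17.6% in all, 42.1% on 2L and 3.15% on 3R, and over 2 Mb it was 13.99% on 2L. Some alternatives were chosen after the data were seen: leaving out 2L gave 8.88% in all, and clusters under 20 kb gave 16.2% on 2L. Terminal minus interior turned to 2.43 percentage points with the second megabase, 1.60 without the proximal 5 Mb and 2.35 without X, and was -5.74 without 2L. The outer 100 kb minus the rest ranged from -3.12 to 8.67 with 1 replicate left out, and was -0.177 with the outer 50 kb and -1.13 without 3L. Windows at 50% or more in both replicates numbered 30 with the score minimum, 149 with any covered base and 29 at 90% or more. The shared part of covered bases was 66.7% with the score minimum, 57.8% with joined clusters, 56.4% with the length minimum, 66.2% counted in windows and 62.1% without the first 200 kb of 3L. Beyond fewer clusters or regions, the cause was not tested. No paired analysis was possible because the shared replicate numbers link each ChIP sample to an input, and values of the inputs were not analysed here; regions were compared within each replicate. With depth unknown, a base outside every cluster may still carry the mark.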

Other observations

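The combined list was not simply the overlap of the replicate lists, at the arm ends as in the interiors. Of its 123 clusters at the 4 ends, 85 (69.1%) met a cluster of both replicates, 28 (22.8%) met replicate 2 only, 5 (4.07%) met replicate 1 only and 5 (4.07%) met neither. Among the 2373 of the interiors these shares were close, at 71.4%, 20.1%, 4.42% and 4.00%. Those that met neither lay on 2L at 194647 to 196365 and 983737 to 985298, on 3R at 27627310 to 27630134, and on X at 714324 to 715618 and 783798 to 784814. In the other direction, 3 stretches covered in both replicates had no combined cluster. They were 1006 bp on 3R at 27894777 to 27895782, 742 bp on 2L at 417600 to 418341 and 8 bp on 3L. Of the bases that only replicate 2 covered, the combined list kept 44.3%, and of those that only replicate 1 covered, 78.4%.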
